A study of Mus musculus with 12 samples.

Results

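Copying and reading of mitochondrial DNA (mtDNA) depend on proteins made from nuclear genes, and 10 of these genes are described here in nucleus pulposus, the soft inner tissue of intervertebral discs. The transcription group held Tfam, Tfb2m, Polrmt, Tefm and Mterf3, and the replication group held Twnk, Polg, Polg2, Ssbp1 and Lig3. They were taken by symbol from a count table of 32285 genes, where all 10 were found and all 10 passed the filter on low counts. The set was chosen by function and not by the measured values of its genes, but with earlier results of these data known.

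Bulk RNA was sequenced from tail nucleus pulposus of 6 Opa1cKO mice and 6 WT mice, with 1 mouse per library, all aged 12 months on a C57BL/6-129/SvEv background. Opa1cKO mice lost Opa1, an inner-membrane fusion GTPase, when they were 3 months old through AcanCre, a Cre recombinase under aggrecan control that acts in disc and cartilage, and then aged for 9 months. WT mice received the same tamoxifen course, 100 mg/kg on 3 days in a row, so tamoxifen exposure is common to both genotypes. Cre is limited to cells that express aggrecan, so other cells of the sample keep Opa1.

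TFAM packages mtDNA into nucleoids and bends its promoters, TFB2M opens the promoter, and POLRMT, a single-subunit RNA polymerase, copies the DNA, with TEFM keeping it on the template. In replication the helicase Twinkle (Twnk) unwinds the DNA, polymerase gamma (Polg with its accessory subunit Polg2) copies it, SSBP1 coats the single strands and LIG3 seals the nicks. POLRMT also makes the RNA primers from which mtDNA synthesis starts, so the transcription and replication machineries share this enzyme.

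Library totals ran from 37268242 to 56618266 counts, which puts 37 to 57 reads behind 1 CPM (reads scaled by library total and TMM factor). Opa1, the deleted gene, had 30.2, 40.8 and 47.7 CPM (lowest, median and highest) in Opa1cKO libraries, against 69.3, 107 and 118 CPM in WT libraries, and its log2 fold change was -1.22 (edgeR adjusted p = 3.05e-05, SE 0.116). Reads of sex-linked genes went against the labelled sex in 4 libraries, Opa1cKO 4 and WT 4, 5 and 6. WT 1, 2 and 3 are labelled female, so an edgeR fit without the 4 has no labelled-male WT library. With the sex term kept, its genotype difference rests on the labelled females, Opa1cKO 5 and 6 against WT 1, 2 and 3. The notochordal markers T, Krt19 and Krt8 were abundant in both genotypes, with medians of 2916, 2260 and 1936 CPM in Opa1cKO libraries and 2745, 2187 and 1541 CPM in WT libraries, and none of 8 tested nucleus pulposus markers was called. Of 3 tested macrophage markers 2 were called, Cd68 higher and Csf1r lower, and the summed level of the 6 listed ran from 96.7 to 116 CPM in Opa1cKO libraries and from 98.6 to 191 CPM in WT libraries. One of the 4 bone markers was tested and called, and their sum ran from 0.457 to 2.04 CPM in Opa1cKO libraries and from 2.28 to 4.36 CPM in WT libraries. Of 5 red cell markers none was tested, and Hba-a1 was at 0. Their sum ran from 0.101 to 1.67 CPM in Opa1cKO libraries and from 0.0434 to 2.41 CPM in WT libraries. Of 9 proliferation markers 1 was called. The 6 fibrous tissue and annulus markers summed to 1572 to 2515 CPM in Opa1cKO libraries and 1342 to 1972 CPM in WT libraries. None of the 5 tested among them was called. Summed neutrophil markers reached 9.50 CPM in Opa1cKO and 23.2 CPM in WT. Summed hypertrophic cartilage and endplate markers reached 19.5 CPM in Opa1cKO and 3.97 CPM in WT. The part of these markers in the values below was not tested.

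Levels of the 10 genes were compared with each other in the deposited TPM, which for these genes divide by the combined length of all annotated exons, not by that of 1 transcript. Polg2 had the highest mean in Opa1cKO libraries at 55.2 ± 36.2 TPM, followed by Lig3 at 38.6 ± 4.36 TPM and Polg at 33.0 ± 2.04 TPM (SD, n = 6 each). In WT libraries Polg came first at 33.5 ± 2.30 TPM, then Lig3 at 30.3 ± 3.29 TPM and Tfam at 29.5 ± 3.99 TPM, while Polg2 stood eighth at 18.1 ± 9.21 TPM. Ssbp1 was last in both TPM orders, at 8.87 ± 0.938 TPM in Opa1cKO and 9.32 ± 1.51 TPM in WT. In both genotypes every gene's range over libraries overlapped that of the next gene in the order, so neighbouring positions are not separated by their spread. The order also depends on the length used. In CPM per 1000 bases of the longest annotated transcript, a comparison added after the data were seen, Polg2 stayed first in Opa1cKO at 19.1 ± 12.8 and Mterf3 came second at 13.3 ± 1.18. On that scale Mterf3 came first in WT at 10.7 ± 0.783, and in Opa1cKO Polrmt was last at 3.59 ± 1.21, next to Ssbp1 at 3.65 ± 0.358 (SD, n = 6 each), a gap smaller than either spread.

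Promoter sequence was taken for 9 of the 10 genes, all but Mterf3, from RefSeq windows (GRCm38.p6) of 250 bases before to 50 after a start site, with 2 windows for Twnk. The binding core of GABP, an ETS-family activator of mitochondrial genes, was searched as CCGGAAG on both strands. It was present for 7 of the 9 genes, in 7 of their 10 windows, against 8.86% of all 32851 mouse promoter windows of the same length. The motif of NRF1, another activator of this class, was searched as GCGCANGCG on both strands. It was present for Lig3, Polrmt and Tfb2m, in 3 of the 10 windows, against 6.25% of all windows. An estrogen-related receptor site, TNAAGGTCA, matched none of the 9 and 1.28% of all windows. The 10 windows ran from 46.7% to 70.3% GC, and the background was not matched for GC. These matches describe letters only, and binding was not measured. Printed here are the last 100 bases before and first 50 after the start for the genes whose levels are compared most closely: Tfam and Polrmt as the packaging factor and the polymerase of transcription, both subunits of polymerase gamma, and Lig3. Each reads 5′ to 3′ on the gene's own strand, and capitals mark the GABP core (CCGGAAG, or CTTCCGG on the other strand) and the NRF1 matches (runs that begin with CGC). In Polrmt a pair of NRF1 matches overlap and are printed as 1 run of capitals.

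Tfam promoter, chr10:71237995-71238144, minus strand: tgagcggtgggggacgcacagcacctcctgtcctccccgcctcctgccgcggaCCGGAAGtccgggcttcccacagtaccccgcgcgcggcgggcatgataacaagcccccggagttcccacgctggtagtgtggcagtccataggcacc
Polrmt promoter, chr10:79746532-79746681, minus strand: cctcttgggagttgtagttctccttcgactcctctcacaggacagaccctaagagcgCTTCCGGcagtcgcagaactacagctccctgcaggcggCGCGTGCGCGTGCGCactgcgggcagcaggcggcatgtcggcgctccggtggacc
Polg promoter, chr7:79466224-79466373, minus strand: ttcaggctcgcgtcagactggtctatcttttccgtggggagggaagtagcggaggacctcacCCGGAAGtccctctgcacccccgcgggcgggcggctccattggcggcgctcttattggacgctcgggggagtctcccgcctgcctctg
Polg2 promoter, chr11:106779488-106779637, minus strand: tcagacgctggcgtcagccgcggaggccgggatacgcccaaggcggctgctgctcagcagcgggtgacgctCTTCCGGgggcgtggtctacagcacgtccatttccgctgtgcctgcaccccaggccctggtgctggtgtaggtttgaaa
Lig3 promoter, chr11:82781009-82781158, plus strand: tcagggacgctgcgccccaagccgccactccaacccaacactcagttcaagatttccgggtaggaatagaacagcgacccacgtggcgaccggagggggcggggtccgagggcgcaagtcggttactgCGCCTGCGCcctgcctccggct

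Polg and Polg2 each carry the GABP core a short way before the start, and their RNA levels stood at opposite ends of the set in spread between libraries. The transcripts of the factors themselves, looked up because their motifs were searched, did not pass the test and differed in direction. The log2 fold change was -0.17 for Nrf1 (edgeR adjusted p = 0.295) and -0.10 for Gabpa (edgeR adjusted p = 0.512). It was 0.25 for Gabpb1 (95% interval 0.07 to 0.43, edgeR adjusted p = 0.0723). For the estrogen-related receptor gene Esrra it was 0.17 (edgeR adjusted p = 0.554).

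Between genotypes, 2 of the 10 genes passed the test (edgeR quasi-likelihood, labelled sex as covariate, adjusted p below 0.05 over 15229 genes), Lig3 and Mterf3, both higher in Opa1cKO. The background was 10.2% of all genes tested, with 5.1% called higher and 5.13% called lower in Opa1cKO. A count of 2 among so few genes is too small to call the set different from that background. The median log2 fold change of the 10 was -0.08, against 0.01 for all genes tested, and the median size of change regardless of sign was 0.21, against 0.18. The same Opa1cKO libraries had far fewer counts for transcripts of mtDNA itself. mt-Nd1 had 5.02, 7.52 and 15.6 CPM (lowest, median and highest) in Opa1cKO libraries, against 61.4, 102 and 136 CPM in WT libraries. The log2 fold change was -3.64 for mt-Nd1, -4.64 for mt-Nd6 and -4.30 for mt-Cytb, and all 9 tested of the 13 protein-coding transcripts of mtDNA were lower, with log2 fold changes from -5.41 to -3.30. The others did not pass the filter on low counts. In WT libraries the median was 36.5 CPM for mt-Nd6, against 107 CPM for Opa1, and the deposited TPM hold no mtDNA protein-coding symbol. The part of read handling before counting in these levels was not tested. In bulk tissue, fewer cells of a type and less RNA per cell cannot be told apart.

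**Figure D1:**
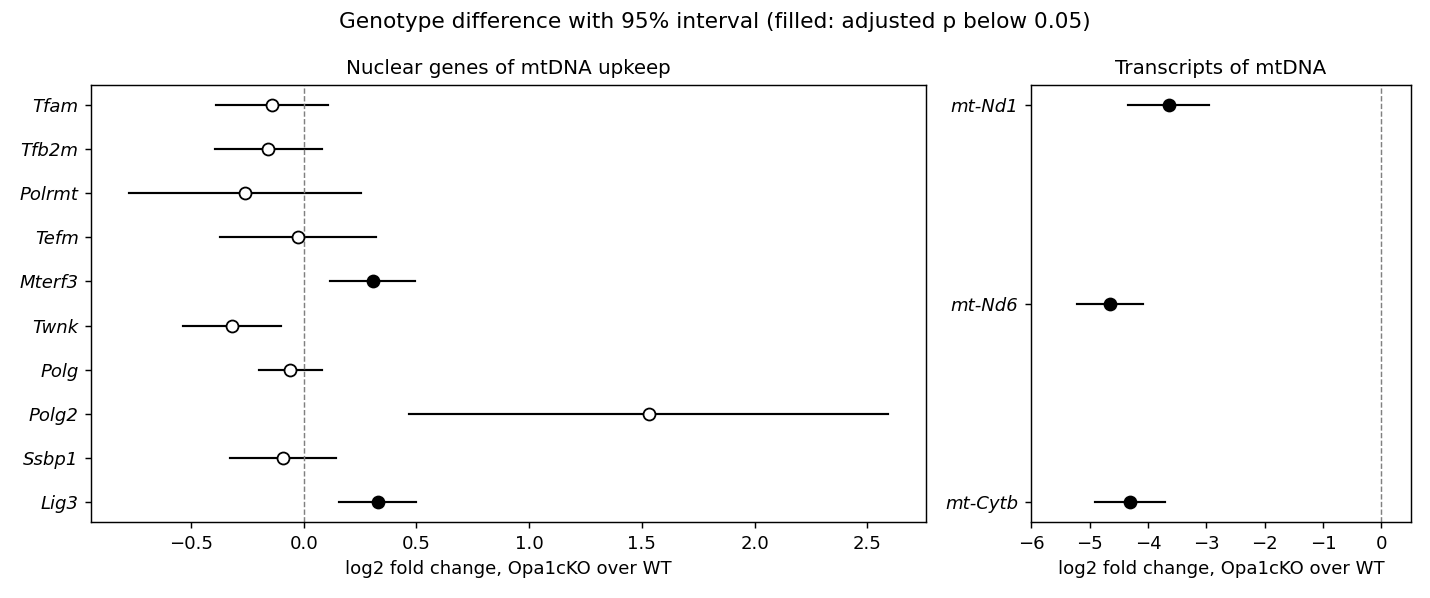
Log2 fold change (Opa1cKO over WT) of the 10 genes on the left and of mt-Nd1, mt-Nd6 and mt-Cytb on the right, with 95% intervals from edgeR and separate scales. Filled points have an adjusted p below 0.05: Mterf3 and Lig3 lie near 0.3, Polg2 lies highest with the widest interval, and the mtDNA transcripts lie below -3.

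Among the transcription genes, none of the 4 that start or carry out transcription passed the test. Tfam (ENSMUSG00000003923, chromosome 10, 71225464 to 71238280, minus strand of mm10, GENCODE M21) had 22.7, 25.4 and 30.8 CPM (lowest, median and highest) in Opa1cKO libraries, against 25.0, 28.4 and 33.3 CPM in WT libraries, and its log2 fold change was -0.14 (95% interval -0.39 to 0.11, edgeR adjusted p = 0.490). The ranges overlapped widely, and the highest Opa1cKO library, Opa1cKO 3, lay above the WT median. Tfb2m (ENSMUSG00000026492, chromosome 1, 179528055 to 179546267, minus strand), the promoter-opening partner of Polrmt, had 9.96, 11.1 and 12.7 CPM in Opa1cKO libraries, against 10.7, 12.3 and 14.3 CPM in WT libraries (log2 fold change -0.16, 95% interval -0.40 to 0.08, edgeR adjusted p = 0.411). Its libraries overlapped for most of their range. For the elongation factor Tefm (ENSMUSG00000046909, chromosome 11, 80136678 to 80142175, minus strand), values were 6.85, 8.81 and 10.9 CPM in Opa1cKO libraries and 6.92, 9.70 and 11.2 CPM in WT libraries, with a log2 fold change of -0.03 (95% interval -0.37 to 0.32, edgeR adjusted p = 0.945). These intervals exclude a 2-fold lower level for each of the 3, which is the size that a log2 value of -1 would mark.

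Polrmt (ENSMUSG00000020329, chromosome 10, 79736123 to 79746581, minus strand), the polymerase itself, split the libraries of both genotypes. Opa1cKO 1 to 6 had 18.7, 21.2, 8.18, 18.7, 15.1 and 10.3 CPM, and WT 1 to 6 had 16.8, 10.3, 21.3, 13.8, 18.6 and 20.5 CPM. The lowest libraries were Opa1cKO 3, Opa1cKO 6 and WT 2, and the ranges of the genotypes overlapped almost completely. The log2 fold change was -0.26 (95% interval -0.77 to 0.25, SE 0.238, edgeR adjusted p = 0.536). The longest Polrmt transcript has a GC content of 60.5%, above that of 97.1% of genes. The same 3 libraries had the most negative slope of log2 level on transcript GC content relative to their genotype mean, at -0.186 in Opa1cKO 3, -0.127 in Opa1cKO 6 and -0.235 in WT 2 (log2 units per 10 points of GC). With the slope of each library against the mean of all libraries added as a covariate, a choice made after the data were seen, the log2 fold change was -0.45 and passed (edgeR adjusted p = 0.00686). Polrmt passed under 1 of 28 alternative settings, and no single library left out gave a call.

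**Figure D2:**
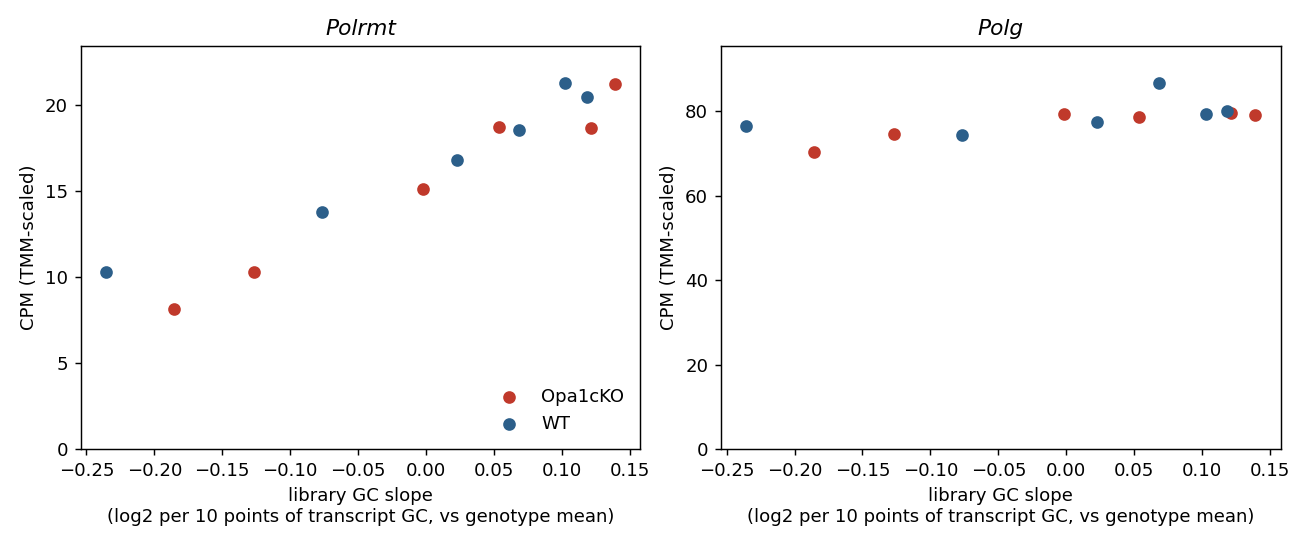
CPM of Polrmt (left) and Polg (right) in each library against that library's slope of log2 level on transcript GC content (log2 units per 10 points of GC, relative to its genotype mean). Polrmt runs from 8.18 CPM in Opa1cKO 3 to 21.3 CPM in WT 3 and is lowest in the libraries with the most negative slopes, while Polg stays between 70.3 and 86.8 CPM.

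Mterf3 (ENSMUSG00000021519, chromosome 13, 66906968 to 66933088, minus strand), which binds mtDNA near its promoter, dampens transcription and is needed for assembly of the mitochondrial ribosome, was higher in Opa1cKO. Opa1cKO 1 to 6 had 32.2, 28.5, 27.3, 34.5, 31.9 and 32.8 CPM, and WT 1 to 6 had 22.4, 25.5, 23.3, 26.4, 27.0 and 26.2 CPM. In CPM every Opa1cKO library lay above every WT library, by a narrow margin between Opa1cKO 3 and WT 5. In TPM the ranges overlapped, with Opa1cKO 3 at 24.7 TPM against WT 4 at 26.1 TPM. The difference in Mterf3 was 0.31 on the log2 scale (95% interval 0.12 to 0.50, SE 0.0881, edgeR adjusted p = 0.0413), or 1.24-fold. The call was close to the threshold. It held without Opa1cKO 2 or without Opa1cKO 3 and was lost without any 1 of the other 10 libraries, where the adjusted p reached 0.144 without Opa1cKO 6 at a log2 fold change of 0.27. With the 4 libraries of contradicted sex removed the log2 fold change was 0.45 (edgeR adjusted p = 0.110). For genotype that fit rests on Opa1cKO 5 and 6 against WT 1, 2 and 3. On the TPM scales the call was also lost, with limma adjusted p of 0.0657 at a pseudocount of 1 and 0.0659 at 0.1. Of the Mterf3 exon bases, 4.67% overlap the opposite-strand gene Ptdss1, which averaged 89.97 ± 10.6 CPM in Opa1cKO and 97.1 ± 7.38 CPM in WT, and no source used here gives the strand setting of the read counting.

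Lig3 (ENSMUSG00000020697, chromosome 11, 82781108 to 82804274, plus strand), the only DNA ligase of mitochondria and also a nuclear repair ligase, was higher in Opa1cKO. Opa1cKO 1 to 6 had 58.1, 64.3, 61.2, 58.2, 54.3 and 68.7 CPM, and WT 1 to 6 had 44.4, 45.7, 48.1, 53.2, 50.9 and 47.7 CPM. In CPM all Opa1cKO libraries lay above all WT libraries, with Opa1cKO 5 closest to WT 4. In TPM these 2 libraries crossed, with Opa1cKO 5 at 33.5 TPM against WT 4 at 35.4 TPM. The difference in Lig3 was 0.33 on the log2 scale (95% interval 0.16 to 0.50, SE 0.0800, edgeR adjusted p = 0.0190), or 1.26-fold. Lig3 and Mterf3 were the 2 of the 10 genes whose CPM ranges did not overlap, against 6.41% of all genes tested (2.77% higher and 3.64% lower in Opa1cKO). In TPM the ranges of all 10 overlapped. The TPM scales also lost the Lig3 call, with limma adjusted p of 0.0532 at a pseudocount of 1 and 0.0529 at 0.1. The Lig3 call was lost without Opa1cKO 6 (log2 fold change 0.25, edgeR adjusted p = 0.0998) and without WT 6 (0.32, edgeR adjusted p = 0.0630), and without the 4 whose reads contradict their sex label (0.42, edgeR adjusted p = 0.119). Of the Lig3 exon bases, 25.1% overlap Rffl on the opposite strand, which averaged 10.4 ± 0.788 CPM in Opa1cKO and 9.17 ± 1.15 CPM in WT. The count does not separate the mitochondrial form of the enzyme from the nuclear one.

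Twnk (ENSMUSG00000025209, chromosome 19, 45005663 to 45012762, plus strand), the helicase, was the gene of the set that came closest to a call among those with lower levels. Opa1cKO 1 to 6 had 18.8, 21.7, 21.5, 16.8, 16.6 and 17.0 CPM, and WT 1 to 6 had 22.5, 25.8, 22.1, 23.5, 22.7 and 21.2 CPM. Opa1cKO 2 and Opa1cKO 3 reached just above the lowest WT library, WT 6, and the other 4 Opa1cKO libraries lay below all WT libraries. The log2 fold change was -0.32 (95% interval -0.54 to -0.10, SE 0.102, edgeR adjusted p = 0.0633). It passed without Opa1cKO 2 (-0.35, edgeR adjusted p = 0.0461) or Opa1cKO 3 (-0.35, edgeR adjusted p = 0.0353), and under 5 of 28 alternatives in all. Among these was sex from reads as the covariate in all 12 libraries (-0.37, edgeR adjusted p = 0.0165). Mrpl43 shares 12.6% of the Twnk exon bases on the opposite strand and averaged 12.5 ± 1.89 CPM in Opa1cKO and 12.9 ± 1.02 CPM in WT.

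**Figure D3:**
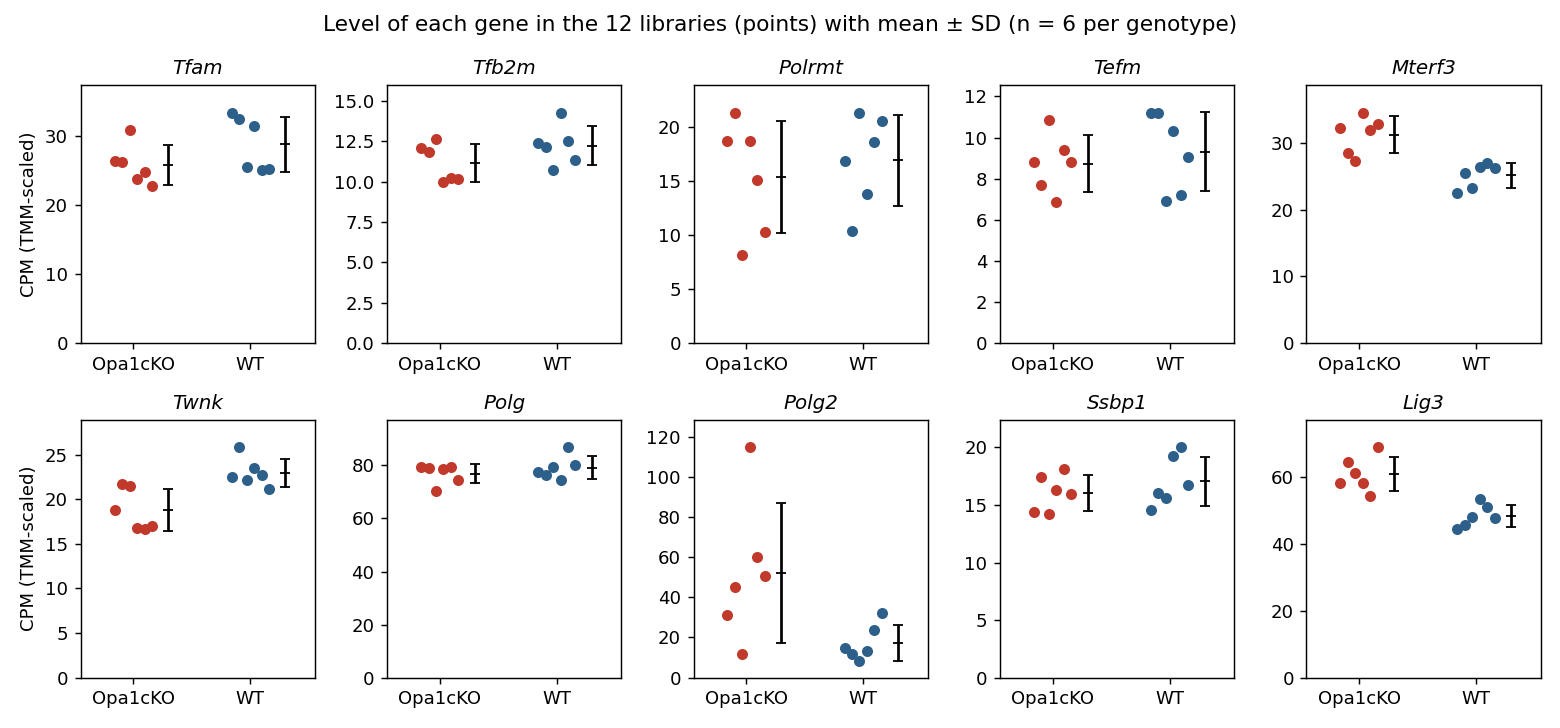
CPM of each of the 10 genes in every library (points), with mean ± SD over 6 libraries, Opa1cKO left and WT right. Mterf3 and Lig3 do not overlap between genotypes in CPM, Twnk overlaps at its edge, Polg is tight in both genotypes, and Polg2 and Polrmt scatter widely.

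Polg2 and Polg encode the 2 kinds of subunit of 1 enzyme, and their transcripts differed in level and in spread. Polg (ENSMUSG00000039176, chromosome 7, 79446231 to 79466362, minus strand), the catalytic subunit, had 70.3, 78.9 and 79.5 CPM (lowest, median and highest) in Opa1cKO libraries, against 74.4, 78.4 and 86.8 CPM in WT libraries. The genotypes overlapped, and the log2 fold change was -0.06 (95% interval -0.20 to 0.08, edgeR adjusted p = 0.620). Polg was among the steadiest genes measured: its highest library was 1.13 times its lowest in Opa1cKO and 1.17 times in WT, and 0.795% of tested genes had a smaller SD within genotypes. Fanci overlaps 8.57% of the Polg exon bases on the opposite strand, at 3.47 ± 0.703 CPM in Opa1cKO and 1.80 ± 0.450 CPM in WT, low beside Polg.

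Polg2 (ENSMUSG00000020718, chromosome 11, 106768253 to 106779537, minus strand), the accessory subunit that holds the polymerase on DNA, had the largest and the most variable difference of the set. Opa1cKO 1 to 6 had 31.3, 44.9, 11.5, 115, 59.96 and 50.8 CPM, and WT 1 to 6 had 14.5, 11.8, 8.31, 13.4, 23.5 and 32.0 CPM. Of the Opa1cKO libraries 4 lay above every WT library, Opa1cKO 1 lay just under WT 6, and Opa1cKO 3 lay below the WT median. The log2 fold change was 1.53 (SE 0.481, 95% interval 0.47 to 2.59), or 2.89-fold, and it missed the threshold (edgeR adjusted p = 0.0693), although 97.8% of tested genes changed less. Raw counts were 656 to 4868 in Opa1cKO and 383 to 1533 in WT, so counting error is small beside this spread. The highest library was 9.94 times the lowest in Opa1cKO and 3.86 times in WT, and 95.3% of tested genes had a smaller SD within genotypes.

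The Polg2 result moved with the libraries and the settings used. Without Opa1cKO 3 the log2 fold change was 1.73 and passed (edgeR adjusted p = 0.0116), and without Opa1cKO 4 it was 1.22 (edgeR adjusted p = 0.123). Among labelled females, which are 2 Opa1cKO and 4 WT libraries, it was 2.21 (edgeR adjusted p = 0.00196), and among labelled males, 4 Opa1cKO and 2 WT, it was 0.87 (edgeR adjusted p = 0.735). By reads, both labelled-male WT libraries, WT 5 and WT 6, are female, as is Opa1cKO 4, and WT 4 is male. These fits therefore do not divide the mice by sex as the reads show it. The difference between the labelled sexes was itself -1.34 (male minus female, 95% interval -3.38 to 0.70) and did not pass (edgeR adjusted p = 0.808). With the 4 libraries of contradicted sex removed the log2 fold change was 2.26 (edgeR adjusted p = 0.0613), resting on Opa1cKO 5 and 6 against WT 1, 2 and 3. With sex from reads as the covariate in all 12 libraries it was 1.78 and passed (edgeR adjusted p = 0.0231). DESeq2 with labelled sex gave 1.53 and also passed (DESeq2 adjusted p = 0.0268). Polg2 passed under 4 of 28 alternative settings in all.

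Upstream of Polg2 on the same strand, 817 bases away, lies Ddx5, an RNA helicase gene of far higher level, looked at after the Polg2 values were seen. Ddx5 had 1052, 1228 and 1572 CPM (lowest, median and highest) in Opa1cKO libraries, against 685, 916 and 1041 CPM in WT libraries, and was called higher in Opa1cKO (log2 fold change 0.52, edgeR adjusted p = 0.0248). Opa1cKO 4 and Opa1cKO 5 were the 2 highest Opa1cKO libraries and Opa1cKO 3 the lowest for both genes, and WT 6 was the highest and WT 3 the lowest WT library for both. Polg2 did not keep a fixed ratio to Ddx5: there were 10.97, 39.0 and 72.9 Polg2 reads per 1000 Ddx5 reads in Opa1cKO libraries, against 12.1, 15.9 and 30.8 in WT libraries. The part of Ddx5 transcripts in the Polg2 count was not tested.

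**Figure D4:**
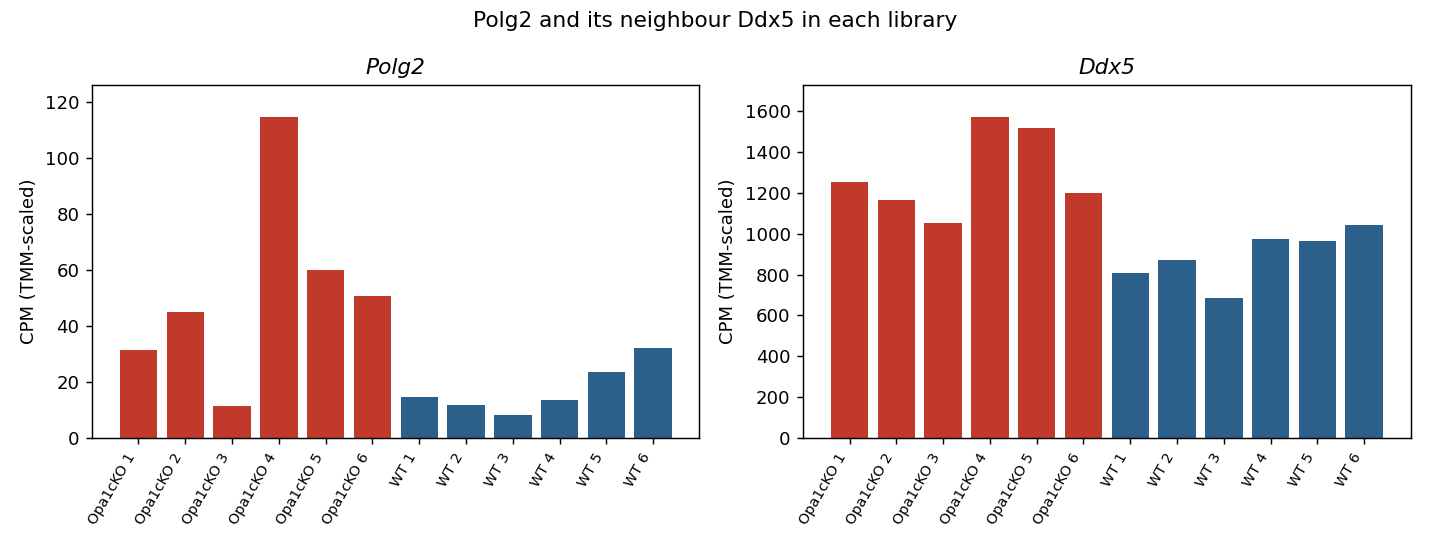
CPM of Polg2 (left) and of its upstream neighbour Ddx5 (right) in each of the 12 libraries, Opa1cKO in red and WT in blue. Polg2 runs from 11.5 to 115 CPM in Opa1cKO and from 8.31 to 32.0 CPM in WT, and Opa1cKO 4 is the highest library for both genes.

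Ssbp1 (ENSMUSG00000029911, chromosome 6, 40471352 to 40484700, plus strand), the single-strand binding protein of the replication fork, had 14.3, 16.1 and 18.2 CPM (lowest, median and highest) in Opa1cKO libraries, against 14.6, 16.4 and 20.01 CPM in WT libraries. The genotypes overlapped almost entirely, and the log2 fold change was -0.09 (95% interval -0.32 to 0.14, edgeR adjusted p = 0.649). Ssbp1 has a near-identical annotated copy, Gm12115 (97.8% identity over 447 bases), and Tfb2m has one, Gm1818 (99.3% over 1187 bases). Neither copy is a row of the counts analysed here, and no source used here says how reads that match both were handled. The counts of Ssbp1 and Tfb2m are therefore uncertain to that extent.

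Ratios between partners within a library do not depend on library scaling, and 6 were tested by exact permutation, two-sided (smallest possible p = 0.00216). The ratio of Polg2 to Polg was 0.164, 0.624 and 1.46 (lowest, median and highest) in Opa1cKO libraries, against 0.105, 0.184 and 0.400 in WT libraries. The difference of the means was 1.48 on the log2 scale (exact p = 0.0216, adjusted over 6 ratios 0.0649), with overlap through Opa1cKO 1 and Opa1cKO 3. Twnk to Polg was 0.210, 0.232 and 0.305 in Opa1cKO libraries, against 0.262, 0.285 and 0.338 in WT libraries (log2 difference -0.26, exact p = 0.0390, adjusted 0.0779). Both of these ratios passed without Opa1cKO 3 (adjusted exact p = 0.0260 each, log2 differences 1.82 and -0.33).

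The ratios of Ssbp1 to Polg, Tfam to Polrmt and Tfb2m to Polrmt differed by -0.04, 0.02 and 0.04 on the log2 scale (adjusted exact p = 0.948, 0.952 and 0.952). Library scaling cancels in these ratios, but the GC slope does not. Tfam to Polrmt was highest in Opa1cKO 3 (3.77) and WT 2 (3.13), the libraries with the most negative slopes. The part of GC slope in the ratios was not tested. The summed level of mt-Nd1, mt-Nd6 and mt-Cytb set against Polrmt was 0.565, 1.09 and 3.37 in Opa1cKO libraries, against 10.2, 17.1 and 24.3 in WT libraries, with no overlap. This log2 difference of -3.82 passed (exact p = 0.00216, adjusted 0.0130), and it also passed with any 1 library left out. With the 4 libraries of contradicted sex removed it was -3.36 (adjusted exact p = 0.214), where 5 against 3 libraries cannot give an exact p below 0.0357. The summed transcripts alone already separated the genotypes, at no more than 27.5 CPM in Opa1cKO and no less than 171 CPM in WT. The outcome of this ratio was therefore known beforehand and is not a separate result.

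Whether the genes follow mtDNA transcripts from mouse to mouse was examined within each genotype, against the summed CPM of the same 3 transcripts, which ran from 10.6 to 27.5 CPM in Opa1cKO and from 171 to 390 CPM in WT. None of the 20 relations passed after adjustment over all 20 (lowest adjusted exact p for Pearson's r = 0.25). Mterf3 had the r of largest size in Opa1cKO: Pearson's r was -0.93 (exact permutation p = 0.0125, adjusted 0.25) and Spearman's rho -0.83 (exact permutation p = 0.0583, adjusted 0.233) over 6 libraries, and r was -0.80 without the 2 libraries farthest from the median. In WT libraries the Mterf3 coefficients had the opposite sign, with r of 0.68 (exact permutation p = 0.114, adjusted 0.337) and rho of 0.94 (exact permutation p = 0.0167, adjusted 0.167), and r was 0.74 without the 2 farthest libraries. Lig3 in WT had r of 0.88 (exact permutation p = 0.0306, adjusted 0.306) and rho of 0.89 (exact permutation p = 0.0333, adjusted 0.222), and r was 0.63 without the 2 farthest. Ssbp1 in WT had r of 0.84 (exact permutation p = 0.0528, adjusted 0.337) and rho of 0.94 (exact permutation p = 0.0167, adjusted 0.167), and r was 0.93 without the 2 farthest. With 6 mice per genotype these values are description only.

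The genotype difference was also compared between labelled sexes. None of the 10 genes passed that test, nor did any of the 15229 genes (edgeR, 0% called, with 899 genes at an unadjusted p below 0.05; DESeq2 called 6). Tfam had the smallest unadjusted p of the set, with the difference 0.46 higher in labelled males (95% interval 0.04 to 0.89, edgeR adjusted p = 0.797). Because 4 libraries go against their labelled sex, this comparison rests on uncertain labels. By reads, neither labelled-male WT library, WT 5 nor WT 6, is male.

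Around the 10 genes, 47 of 48 listed genes of mtDNA upkeep were tested, and 5 were called, 4 higher and 1 lower in Opa1cKO, against the background of 10.2%. The median log2 fold change of the 47 was 0.07. None of the 6 other transcription and termination genes was called, and the smallest p there belonged to Mterf4, a partner in mitochondrial ribosome assembly (log2 fold change -0.12, edgeR adjusted p = 0.484). Of 9 genes of primer removal, flap processing, topology and DNA turnover, only Primpol was called. Primpol, a primase-polymerase that restarts stalled replication, had 15.8, 17.8 and 23.1 CPM (lowest, median and highest) in Opa1cKO libraries, against 9.82, 13.7 and 15.2 CPM in WT libraries (log2 fold change 0.44, edgeR adjusted p = 0.0488). Its groups did not overlap, but the call held in 2 of 12 fits with 1 library left out and was lost with the 4 of contradicted sex removed (0.56, edgeR adjusted p = 0.140).

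Of 9 base excision and end repair genes, Neil1, a DNA glycosylase that removes oxidised bases, was called higher, at 6.78, 8.36 and 10.3 CPM in Opa1cKO libraries against 5.17, 5.49 and 7.24 CPM in WT libraries (log2 fold change 0.50, edgeR adjusted p = 0.0406). The groups overlapped through WT 5, and the call held in 4 of 12 fits with 1 library left out and was lost with the 4 of contradicted sex removed (0.54, edgeR adjusted p = 0.221). Nucleotide supply showed a change in each direction among 9 genes. Rrm1, the large subunit of ribonucleotide reductase, which makes deoxynucleotides, was lower at 54.7, 62.2 and 71.3 CPM in Opa1cKO libraries against 81.5, 98.1 and 108 CPM in WT libraries (log2 fold change -0.55, edgeR adjusted p = 0.00196). The Rrm1 groups did not overlap, and it was called with each of the 12 libraries left out in turn and also with the 4 of contradicted sex removed (-0.73, edgeR adjusted p = 0.0257). Samhd1, which breaks down deoxynucleotides, was higher at 22.6, 24.8 and 26.6 CPM in Opa1cKO libraries against 17.7, 19.5 and 22.3 CPM in WT libraries (log2 fold change 0.34, edgeR adjusted p = 0.0228), with no overlap. The Samhd1 call held in 10 of the 12 fits with 1 library left out, and was lost with the 4 of contradicted sex removed (0.30, edgeR adjusted p = 0.243).

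None of 5 nucleoid and matrix proteolysis genes was called, Atad3a, a nucleoid-associated membrane ATPase, having the smallest p (log2 fold change 0.23, edgeR adjusted p = 0.0605). Of 9 nuclear regulators of mitochondrial genes, only Ppargc1b, a coactivator of NRF1 and the estrogen-related receptors, was called. Ppargc1b had 1.51, 2.94 and 4.38 CPM in Opa1cKO libraries, against 0.651, 1.04 and 1.43 CPM in WT libraries, with no overlap (log2 fold change 1.48, 95% interval 0.84 to 2.12, edgeR adjusted p = 0.00714). Its call was lost without Opa1cKO 6 (1.07, edgeR adjusted p = 0.0543) and without the 4 whose reads contradict their sex label (1.86, edgeR adjusted p = 0.0759).

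For each of the 10 genes, the tested gene most like it over the 12 libraries was sought among 11788 genes averaging at least 1 CPM, without unnamed gene models, pseudogenes, Xist, Y-linked genes or repeated symbols, by Pearson's r of log2 CPM centred within genotype. These are descriptions only, of libraries that also share depth and GC slope. Each r is the highest of 11788 over 12 libraries, so it is high in part by selection. How high r would reach for unrelated genes was not tested. The closest pair was Polrmt with Hdac5 (r = 0.99), followed by Tfam with Ccdc117 (0.98), Tefm with Hnrnpk (0.97), Polg2 with Arid5a (0.97) and Lig3 with Spef2 (0.95). The others were Mterf3 with Akr1b10 (0.94), Ssbp1 with Diablo (0.94), Polg with Mutyh (0.93), Twnk with Rfwd3 (0.93) and Tfb2m with Nol8 (0.93). The 10 genes were themselves left out of the search.

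**Figure D5:**
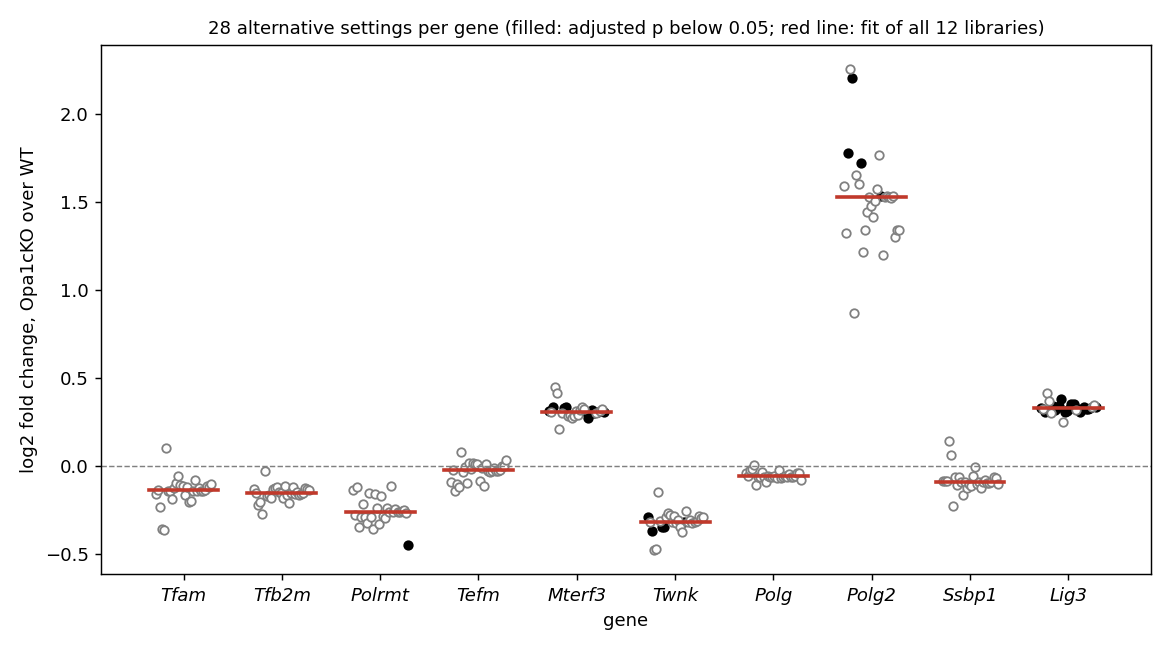
Log2 fold change (Opa1cKO over WT) of each of the 10 genes under 28 alternative settings, filled where the adjusted p was below 0.05, with the value from all 12 libraries as a red line. Lig3 was called in 20 settings, Mterf3 in 11, Twnk in 5, Polg2 in 4 and Polrmt in 1, and Polg2 spans 0.87 to 2.26.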

How the data were processed

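Per the labels' protocols, the input was 50 ng of total RNA, ribosomal RNA was depleted, the kit keeps strand and 14 PCR cycles were run. Per the submitters' processing notes, STAR 2.7.11b was the aligner and mm10 the genome. The read counter and strand setting are not given in any source used here. The deposited counts are whole reads per gene. The deposited TPM values are these counts divided by 1 constant per gene and 1 per library for the 10 genes, so they are not independent; no mitochondrial protein-coding symbol was found in the TPM columns, and TPM served for levels between genes and as an alternative, on log2(TPM + 1) and log2(TPM + 0.1).

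The main test was edgeR 4.0.16 under R 4.3.3, with TMM factors, filterByExpr by genotype (minimum count 10), robust quasi-likelihood with labelled sex and genotype as terms over 12 libraries, and Benjamini-Hochberg adjustment over 15229 genes, called below 0.05. Fits and GC slopes were tested on simulated counts. The search for alike genes was tried on noisy copies of real genes planted in the measured values, which does not test the partners named here. Ratios and relations were tested by exact permutation over libraries. Each library came from 1 mouse, and no 2 libraries of a genotype agreed within sampling noise (smallest chi-square per degree of freedom 33.3). Intervals are for the genotype difference, with an SE that reflects the spread between libraries, and do not give the range of single libraries. PCR duplicates were not separable from separate molecules. Loci, neighbours and transcript GC came from GENCODE M21, which matched 32158 of 32285 identifiers. Copies were sought with blastn 2.17.0 at 95% identity over at least 200 bases.

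The 10 genes, the lists of 48 related genes and of markers, and the tests were chosen with earlier results of these data known. Named were all 10 genes, related genes that were called or had the smallest p in their role, Opa1, mt-Nd1, mt-Nd6, mt-Cytb, T, Krt19, Krt8 and the gene most like each of the 10. Nrf1, Gabpa, Gabpb1, Esrra, Ddx5, Cd68, Csf1r and the overlapping genes were named after their values were seen. Alternatives were the sex covariate, a replicate block, sex from reads, subsets of libraries, DESeq2 1.42.0, limma-voom (limma 3.58.1), scaling, filters, TPM and the threshold; the GC slope was added after the data were seen. Related genes are given for main fits, single libraries left out and the removal of libraries of contradicted sex.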

Additional observations from a re-analysis of the deposited data

How the results depend on the processing

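Against 1558 genes and 2 of the 10 called in the fit of all 12 libraries, 769 genes and 0 of the 10 were called with the replicate block, 325 and 0 without the libraries of contradicted sex, 300 and 1 (Polg2) among labelled females, 419 and 0 among labelled males, and 2473 and 4 at an adjusted p below 0.10. The edgeR fit without the libraries of contradicted sex had no labelled-male WT library left. Its genotype term therefore rested on Opa1cKO 5 and 6 against WT 1, 2 and 3. Of the 10, DESeq2 and sex from reads each called 4 (Lig3, Mterf3, Polg2 and Twnk), no filter on low counts called 1 (Lig3), and each TPM pseudocount called 0. Leaving out 1 library gave 819 to 1995 genes and 0 to 4 of the 10, with 0 of the 10 called without Opa1cKO 6 and without WT 6. The genotype by labelled sex test called 6 genes with DESeq2 and 0 to 22 with 1 library left out, the 22 being without Opa1cKO 5.

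Lig3, Mterf3, Twnk, Polg2, Polrmt and Tfb2m kept their direction under all 28 alternatives. Tfam was 0.10 among labelled males, and Polg 0.0072 among labelled females. Ssbp1 was 0.063 among labelled females and 0.14 without the libraries of contradicted sex. Tefm was 0.079 among labelled males, 0.0016 and 0.0021 on the TPM scales, 0.032 with the GC slope, and -0.11 to 0.018 with 1 library left out. With 1 library left out the log2 difference was 1.19 to 1.82 for Polg2 to Polg, -0.33 to -0.22 for Twnk to Polg, -0.080 to 0.012 for Ssbp1 to Polg, -0.20 to 0.19 for Tfam to Polrmt and -0.16 to 0.17 for Tfb2m to Polrmt. Without the libraries of contradicted sex, Ssbp1 to Polg was 0.071, Tfam to Polrmt -0.052 and the mtDNA transcripts to Polrmt -3.36, which lost its call in a design of 5 against 3. The ratio with mtDNA transcripts was not run on TPM. The cause of the other changes was not tested.

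No pairing of mice by replicate number was visible. Same-numbered libraries correlated at -0.217 to 0.0430 in their deviations from the genotype means, and 0 pairs exceeded 0.1. Low correlations cannot show that the numbers carry no pairing. No numbered pairing is stated in the labels. The 10 genes lay at 6.85 CPM or more in every library, and 1 CPM rests on 37 to 57 reads.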
